A study of Saccharomyces cerevisiae with 36 samples.

Results

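Alachlor and S-metolachlor are chloroacetanilides, a class of herbicides with a chloroacetyl group on the nitrogen of a substituted aniline ring. The genes described here are those that budding yeast changed in the same way when exposed to either compound. They were found in the 12 arrays, of 36 in the series, that belong to the alachlor and S-metolachlor experiments, with 3 arrays in each of 4 groups. All cultures were of BY4741, a haploid Saccharomyces cerevisiae laboratory strain of mating type MATa with mutated HIS3, LEU2, MET17 and URA3, growing exponentially in minimal medium. The exposed cultures received 200 mg/L alachlor or 220 mg/L S-metolachlor for 2 h, in each case the IC20, and each compound was run alongside control cultures of its own, kept without pesticide. In the labels the 3 alachlor IC20 titles end in (2), with no word on what it stands for. The other 24 arrays hold the same design for carbofuran, diuron, MCPA-ME and pyrimethanil. The mass doses of the chloroacetanilides differ, so their changes are given side by side and were not tested against each other.

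In plants, chloroacetanilides block the elongases that make very-long-chain fatty acids, and tolerant plants remove the compounds by joining them to glutathione. Yeast meets many foreign organic compounds with the zinc cluster regulators Pdr1 and Pdr3, which switch on ATP-binding cassette (ABC) pumps and lipid transporters of the plasma membrane. Both herbicides carry an ether side chain on the nitrogen. Alachlor has a methoxymethyl group there and ethyl groups at both ring positions beside the nitrogen, whereas S-metolachlor has a branched, chiral methoxypropyl-type chain and an ethyl and a methyl group on the ring.

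Each value is the linear intensity of a probe set on an Affymetrix Yeast Genome 2.0 array. Array medians lay between 1400.1 and 1511.4 on the 12 arrays, and the correlation of log2 values between arrays of a group ran from 0.9885 to 0.9979. The lowest correlations were those of S-metolachlor control replicate 1, whose mean with the other controls was 0.9892, so the values without it are given where they bear on a result. The 7 MATa-specific genes summed to between 70644.0 and 87930.7 on every array. Of 4 MATalpha-specific genes, MF(ALPHA)1 lay between 15.4 and 36.8 and MF(ALPHA)2 between 67 and 207. STE3 lay between 81 and 179 and SAG1 between 517 and 1736. URA3 lay below 23 on all 12 arrays and MET17 between 11.9 and 40.4. LEU2 lay between 67 and 195. HIS3, whose allele in this strain lacks an internal stretch only, lay between 7279 and 10261. The 3 cultures of a group are described as independent biological triplicates. In RNA from whole cultures, fewer cells of a type and less RNA per cell cannot be told apart.

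Of 5449 genes, 839 were higher and 832 lower with exposure over both experiments, by limma with the experiment as block and a Benjamini-Hochberg adjusted p under 0.05, or 15.4% and 15.3% of the genes tested. Without S-metolachlor control replicate 1 the counts were 800 and 730. This main effect is the mean of the changes in the alachlor and S-metolachlor experiments, and either experiment alone can carry it. Of the 1671 genes called, 421 were also called for each compound by itself in the same direction, 946 for S-metolachlor only, 96 for alachlor only and 208 for neither alone. Alachlor by itself raised 349 genes and lowered 245 (6.4% and 4.5% of those tested), and S-metolachlor raised 1010 and lowered 1198 (18.5% and 22%). The lower count for alachlor was 151, 131 and 144 without alachlor control replicate 1, 2 or 3 and 141 and 127 without alachlor IC20 replicate 2 or 3, and the higher count was 228 without control replicate 2. Genes called for both in the same direction, written below as changed with both, numbered 261 higher and 160 lower, or 4.79% and 2.94% of all genes, and 323 and 174 without S-metolachlor control replicate 1. The lower count fell to 100 without alachlor control replicate 2, to 88 without alachlor control replicate 3, to 101 without alachlor IC20 replicate 2 and to 89 without alachlor IC20 replicate 3.

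The higher genes made up 74.8% of all genes raised by alachlor and 25.8% of those raised by S-metolachlor. The lower genes made up 65.3% and 13.4% of those lowered. Their median log2 change was 0.44 with alachlor and 0.51 with S-metolachlor for the higher genes, and -0.33 and -0.47 for the lower genes, against 0.00 and -0.02 over all genes. At least 2-fold with each compound, 36 genes rose and 9 fell, and at least 4-fold 10 rose and 1 fell. All 3 IC20 values lay beyond all 3 control values in both experiments for 259 of the 261 higher genes and 159 of the 160 lower genes. Over all genes this held for 503 in the higher direction (9.23%) and 413 in the lower (7.58%). The 261 and 160 genes were called on these same arrays, a choice that by itself favours such separation. Across the 5449 genes the changes in the alachlor and S-metolachlor experiments correlated with Pearson's r = 0.62 and Spearman's rho = 0.457, a description over genes, which are not independent replicates.

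**Figure D1:**
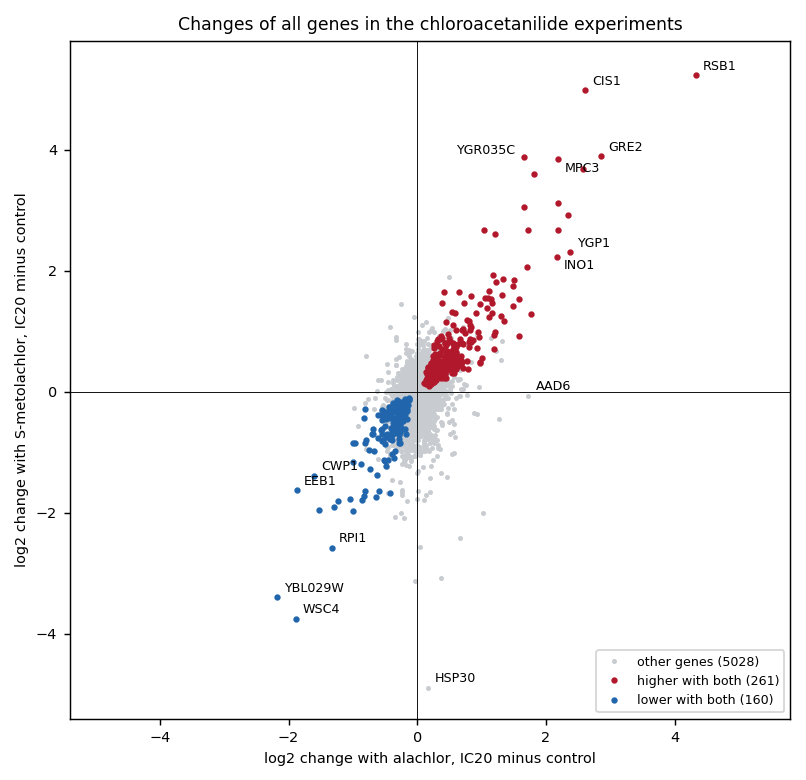
Log2 change (IC20 minus control, means of 3 arrays each) with alachlor on the x axis and with S-metolachlor on the y axis for 5449 genes. The 261 genes higher with both are red, the 160 lower with both are blue and the other 5028 are grey. RSB1 is at the upper right and WSC4 and YBL029W at the lower left, while HSP30 and AAD6 lie on an axis.

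The strongest shared rise was in genes of multidrug resistance. Of 19 measured genes listed as targets of Pdr1 and Pdr3, 17 rose over both experiments (89.5%, against 15.4% of all genes). The same 17 changed with both compounds, where 4.79% of all genes were higher. The median log2 main effect was 1.45 over the list (1.21 with alachlor and 1.65 with S-metolachlor), against -0.01 over all genes. RSB1 (YOR049C), which encodes a membrane protein that moves sphingoid long-chain bases out of the cell, had intensities of 179.9, 206 and 205 in the alachlor controls and 4296, 4005 and 3592 with alachlor, and 114, 117 and 107 in the S-metolachlor controls and 4288, 4464 and 3960.4 with S-metolachlor. Every control was dim and every exposed array bright, with no overlap within or between experiments. Its change was 4.33 with alachlor (95% interval 4.15 to 4.51) and 5.23 with S-metolachlor (5.05 to 5.41), for a log2 main effect 4.78 (95% interval 4.45 to 5.11, limma adjusted p = 3.67e-08). RTA1 (YGR213C), of the same family of lipid-translocating proteins, had intensities of 102, 78.4 and 93.9 in the alachlor controls and 576, 556 and 495 with alachlor, and 177, 103 and 78.6 in the S-metolachlor controls and 1447, 1366 and 1497 with S-metolachlor. Here too all exposed arrays exceeded all controls, and the main effect was 3.12 (limma adjusted p = 9.01e-06).

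The plasma membrane pumps on the Pdr1/Pdr3 list rose. YOR1 (YGR281W), an ABC transporter known for oligomycin resistance, had intensities of 2439, 2259 and 2417 in the alachlor controls and 10536, 10208 and 11889 with alachlor, and 1606, 1938 and 1931 in the S-metolachlor controls and 15148, 15195 and 17181 with S-metolachlor. The 6 exposed arrays lay well above the 6 controls, for a log2 main effect 2.66 (95% interval 2.32 to 3.00, limma adjusted p = 1.61e-06). PDR5 (YOR153W), the main drug efflux pump of this species, had 10966, 10138 and 10304 in the alachlor controls and 21598, 21998 and 21715 with alachlor, and 7555, 7805 and 8354 in the S-metolachlor controls and 23082, 23020.4 and 23532 with S-metolachlor. It was bright in the controls and brighter in every exposed array, with changes of 1.06 with alachlor and 1.56 with S-metolachlor (limma adjusted p for the main effect = 2.47e-06). The related ABC pump genes SNQ2, PDR10 and PDR15 had main effects of 1.32, 1.91 and 1.03. PDR15 was called for each compound, with 0.41 with alachlor and 1.65 with S-metolachlor. The polyamine exporter gene TPO1 rose by 0.77.

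The list also holds enzymes, a regulator and genes of lipid handling. CIS1 (YLR346C), which encodes a short protein, had intensities of 331, 309.7 and 329 in the alachlor controls and 1994, 2045 and 1905 with alachlor, and 172, 152 and 134 in the S-metolachlor controls and 4696, 4335 and 5463 with S-metolachlor. The exposed arrays of the alachlor and S-metolachlor experiments did not overlap each other or any control, and the changes were 2.62 with alachlor and 4.99 with S-metolachlor. ICT1, a lysophosphatidic acid acyltransferase gene, rose by 2.63, and PDR16, which encodes a phosphatidylinositol transfer protein, by 1.45. IPT1, which adds the last head group of the complex sphingolipids, rose by 0.65. PDR3 itself rose by 0.67 and RPN4, the regulator of proteasome genes, by 1.34. BDH2, a putative alcohol dehydrogenase gene, rose by 2.43, and the genes YGR035C and YLL056C, whose function is not established, by 2.77 and 2.36. The members not called were the hexose transporter genes HXT9, on a probe set shared with similar sequences (0.00), and HXT11, whose intensities ran near the floor of 32 (0.13, limma adjusted p = 0.117).

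**Figure D2:**
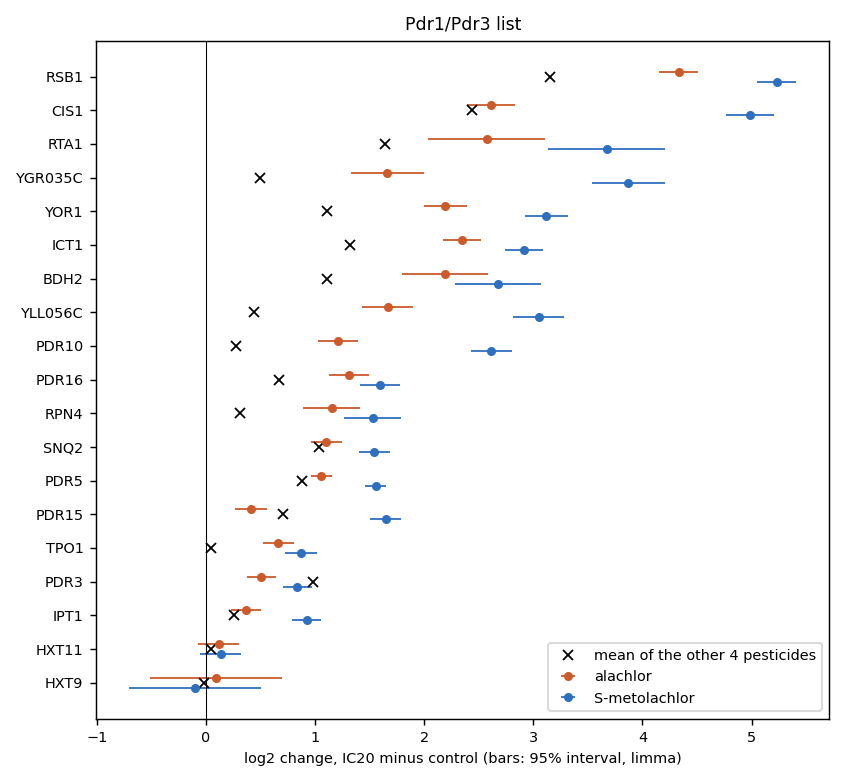
Log2 change (x axis, IC20 minus control) of the 19 measured members of the Pdr1/Pdr3 list, with alachlor (orange) and S-metolachlor (blue) and 95% intervals from limma on 12 arrays; crosses are the mean change with the other 4 pesticides, from 24 other arrays. For 17 members both intervals lie above 0, and for HXT9 and HXT11 they include 0.

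Resistance genes outside the Pdr1/Pdr3 list moved both ways. Of 26 genes of other drug regulators and multidrug pumps, 5 rose and 2 fell over both experiments. These shares were 19.2% and 7.7%, against 15.4% and 15.3% of all genes. By itself alachlor raised 4 and lowered 1, and S-metolachlor raised 3 and lowered 6. Over the list the median was 0.01, and 1 gene rose and 1 fell with both. The one that rose was QDR3, a transporter of the major facilitator family (0.60 with alachlor and 0.64 with S-metolachlor), and the one that fell was its relative QDR2 (-0.42 with alachlor and -0.26 with S-metolachlor). FLR1, another pump of this family, rose by 0.41 over both experiments.

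A reductase gene had the largest main effect after RSB1 and CIS1. GRE2 (YOL151W), a methylglyoxal reductase that also reduces other carbonyl compounds, had intensities of 2371, 2529 and 2579.6 in the alachlor controls and 18233, 17734 and 18163 with alachlor, and 1234, 1215 and 1212 in the S-metolachlor controls and 17607, 17464 and 19329 with S-metolachlor. The exposed arrays of the alachlor and S-metolachlor experiments reached the same range from different control levels, and no control came near them. Its log2 main effect 3.37 (95% interval 3.01 to 3.73, limma adjusted p = 4.68e-07) combined changes of 2.86 with alachlor and 3.89 with S-metolachlor. Of 12 carbonyl reductase genes, 4 rose and 1 fell (33.3% and 8.3%, against 15.4% and 15.3% of all genes). All 5 changed with both compounds, and the list median was 0.21. The aldo-keto reductase gene GCY1 rose by 1.31 and ARI1, an aldehyde reductase gene, by 0.64. BDH1, the butanediol dehydrogenase gene, fell by 0.66 on the log2 scale (-0.54 with alachlor and -0.79 with S-metolachlor). YPL088W, a putative aryl-alcohol dehydrogenase gene outside the lists, rose by 2.70 (1.81 with alachlor and 3.60 with S-metolachlor).

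The aryl-alcohol dehydrogenase family itself had no member called for both. Of 7 measured members 4 were called higher over both experiments (57.1%, against 15.4% of all genes), with a list median of 0.32. By itself alachlor raised 4 and S-metolachlor 0. By limma 0 of the 7 changed with both, near the share of all genes higher with both, 4.79%. An unadjusted p under 0.05 for each compound held for 1. AAD6 (YFL056C) had intensities of 202, 173 and 188 in the alachlor controls and 598, 647 and 617 with alachlor, and 161, 161 and 153 in the S-metolachlor controls and 167, 153 and 137 with S-metolachlor. Only the alachlor-exposed arrays stood above the rest, and those of S-metolachlor overlapped their controls. Its changes were 1.73 with alachlor (limma adjusted p = 7.15e-07) and -0.06 with S-metolachlor (limma adjusted p = 0.545). Its call for the main effect was lost without any 1 of the 6 alachlor arrays, S-metolachlor control replicate 3 or S-metolachlor IC20 replicate 1. AAD4, on a probe set shared with similar sequences, changed by 0.96 with alachlor and 0.08 with S-metolachlor.

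Glutathione genes moved both ways. Of 22 genes 6 rose and 3 fell over both experiments (27.3% and 13.6%, against 15.4% and 15.3% of all genes). With both compounds 4 rose and 2 fell, and the list median was 0.05. ECM4 (YKR076W), an omega-class glutathione transferase gene, had intensities of 487, 537 and 556 in the alachlor controls and 1099, 1033 and 912 with alachlor, and 711, 442 and 407 in the S-metolachlor controls and 987, 998 and 999.6 with S-metolachlor. Exposed arrays exceeded the controls of their own experiment, and S-metolachlor control replicate 1 was the highest of the controls. It rose by 0.96, or 1.07 (limma adjusted p = 7.83e-06) without that array. GTT2, a glutathione transferase gene, changed by 0.71 with alachlor (limma adjusted p = 0.000961) and 0.04 with S-metolachlor (limma adjusted p = 0.747), and its call for the main effect was lost without any 1 of the 6 alachlor arrays, S-metolachlor control replicate 3 or S-metolachlor IC20 replicate 2. OPT1, which imports glutathione, fell by 0.68 on the log2 scale (-0.50 with alachlor and -0.86 with S-metolachlor). Among 19 genes of peroxide and thioredoxin defence 6 rose and 4 fell (31.6% and 21.1%), and 2 rose with both, with PRX1, the mitochondrial peroxiredoxin gene, at 0.53.

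Genes outside drug resistance that rose most included MPC3, YGP1, INO1, ATG40 and MET28. MPC3 (YGR243W) encodes a subunit of the mitochondrial pyruvate carrier used during respiratory growth, and its intensities were 889, 916 and 972 in the alachlor controls and 4448, 4254 and 3932 with alachlor, and 321, 314 and 301 in the S-metolachlor controls and 4685, 3713 and 5189.6 with S-metolachlor. The exposed groups overlapped each other and lay far above both control groups, for a log2 main effect 3.01 (95% interval 2.43 to 3.60, limma adjusted p = 3.10e-05). YGP1 (YNL160W), a secreted glycoprotein gene known to respond to nutrient limitation, had 2536, 2821 and 3208 in the alachlor controls and 15269.5, 13969.8 and 14835 with alachlor, and 5075, 2705 and 2362 in the S-metolachlor controls and 15292, 15918 and 16178 with S-metolachlor. Exposed arrays lay in 1 narrow range, and S-metolachlor control replicate 1 was the highest control. Its changes were 2.37 with alachlor and 2.31 with S-metolachlor, and the main effect of 2.34 was 2.49 (limma adjusted p = 1.02e-07) without that control. INO1 (YJL153C), the inositol-3-phosphate synthase gene that starts inositol synthesis, had 457, 347 and 429.8 in the alachlor controls and 1649.6, 1921 and 1962 with alachlor, and 575, 492 and 474 in the S-metolachlor controls and 2452, 2528 and 2258 with S-metolachlor. No exposed array overlapped a control, and the changes were 2.17 with alachlor and 2.23 with S-metolachlor (limma adjusted p for the main effect = 7.87e-08).

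**Figure D3:**
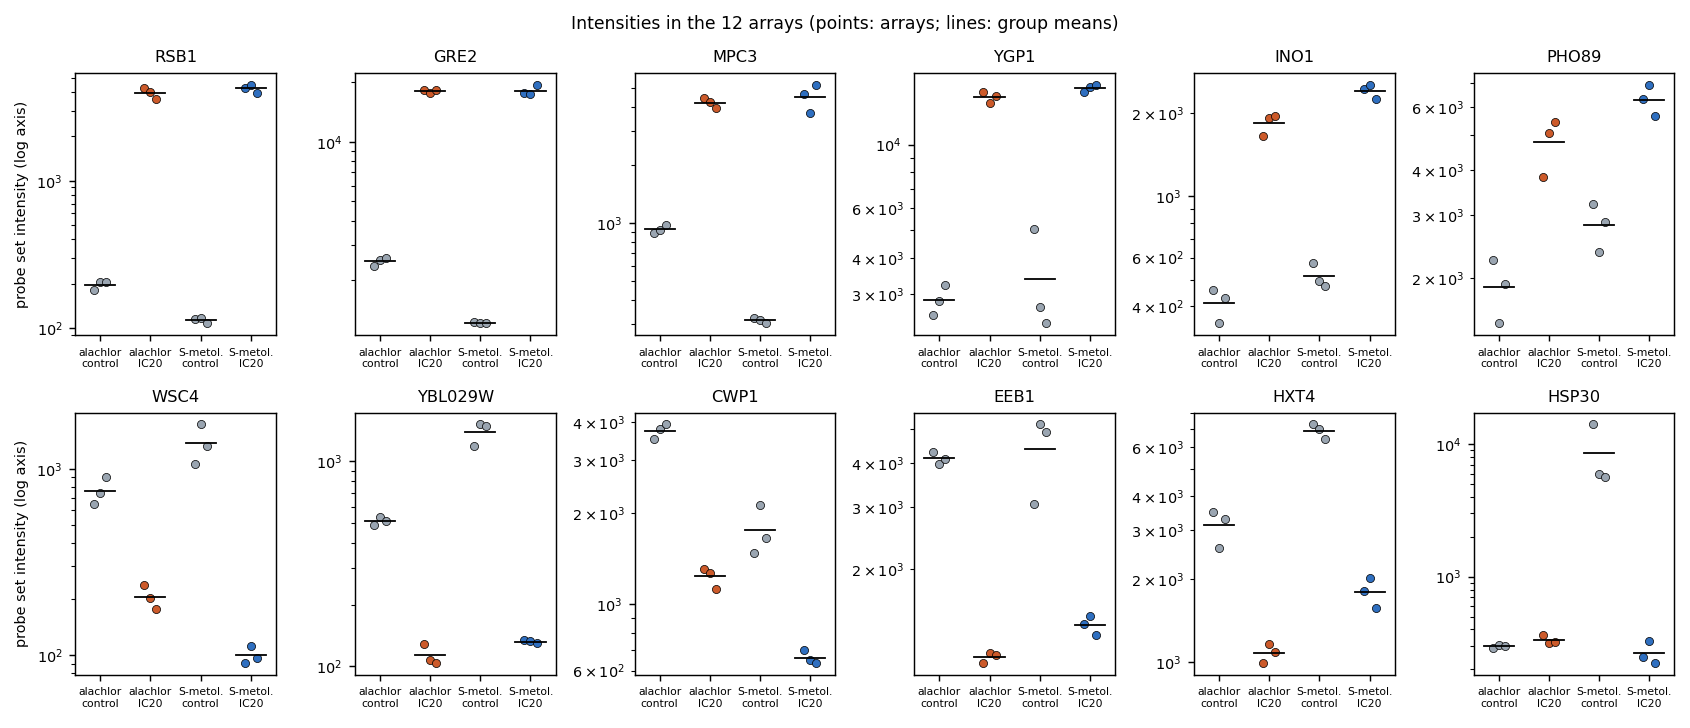
Probe set intensities (log axis, a different range in each panel) of 12 genes in the 4 groups of 3 arrays; points are arrays and horizontal lines group means. RSB1, GRE2, MPC3, YGP1, INO1 and PHO89 are higher and WSC4, YBL029W, CWP1, EEB1 and HXT4 lower in the exposed arrays of both experiments, whereas HSP30 is high only in the S-metolachlor controls.

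The largest shared fall was in WSC4. WSC4 (YHL028W), a membrane protein of the Wsc family of cell surface sensors, had intensities of 649, 739 and 902 in the alachlor controls and 238, 203 and 177 with alachlor, and 1066, 1727 and 1317 in the S-metolachlor controls and 91.5, 112 and 96.5 with S-metolachlor. All exposed arrays were below all controls, and its log2 main effect -2.82 (95% interval -3.51 to -2.13, limma adjusted p = 0.000146) came from changes of -1.89 with alachlor and -3.75 with S-metolachlor. YBL029W, whose function is not established, had 487, 533 and 512 in the alachlor controls and 128, 108 and 104 with alachlor, and 1186, 1512 and 1485 in the S-metolachlor controls and 134, 132 and 129.7 with S-metolachlor. The controls of the alachlor and S-metolachlor experiments differed from each other, while the exposed arrays of both fell to a similar dim range, with changes of -2.18 with alachlor and -3.39 with S-metolachlor. RPI1, a putative transcription factor gene, fell by 1.95 on the log2 scale (-1.33 with alachlor and -2.58 with S-metolachlor).

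EEB1 (YPL095C) encodes an acyltransferase that makes ethyl esters of medium-chain fatty acids and had intensities of 4308, 3960.2 and 4107 in the alachlor controls and 1082, 1152 and 1137 with alachlor, and 3054, 5143 and 4907 in the S-metolachlor controls and 1389.9, 1465 and 1292 with S-metolachlor. Every exposed array lay below every control, for changes of -1.88 with alachlor and -1.62 with S-metolachlor (limma adjusted p for the main effect = 3.80e-06). CWP1 (YKL096W), a cell wall mannoprotein gene, had 3523, 3803 and 3931 in the alachlor controls and 1307, 1267 and 1122 with alachlor, and 1475, 2133 and 1657 in the S-metolachlor controls and 701, 649.6 and 638 with S-metolachlor. The exposed arrays were below the controls in each experiment, with changes of -1.61 with alachlor and -1.39 with S-metolachlor. PDR12 (YPL058C), the ABC pump gene for weak organic acids, had 4916, 4501 and 4650.1 in the alachlor controls and 2240.0, 2052 and 2855 with alachlor, and 5530.1, 6653 and 6524 in the S-metolachlor controls and 1526, 1749 and 1499 with S-metolachlor. In contrast to the Pdr1/Pdr3 pumps it fell in both experiments, by 0.99 and 1.97 on the log2 scale. PHO3, the constitutive acid phosphatase gene, changed by -1.52, CAR2, the ornithine transaminase gene, by -1.23, PRY1, which encodes a secreted sterol-binding protein, by -1.19, and the choline transporter-like gene PNS1 by -1.08. HMS2, which resembles heat shock transcription factors, changed by -1.28, and YDR222W, without an established function, by -1.12. The calls for CAR2, HMS2 and PRY1 were lost with the 6 controls taken as 1 group.

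Genes that yeast represses on good nitrogen sources rose together. Of 27 measured, 19 rose over both experiments (70.4%, against 15.4% of all genes) and 8 did not pass the test. With both compounds 9 rose, where 4.79% of all genes did, and the median was 0.31. MEP2 (YNL142W), the high-affinity ammonium permease gene, had 4550.0, 4447 and 4502 in the alachlor controls and 10778, 9903 and 10006 with alachlor, and 4383, 3692 and 3542 in the S-metolachlor controls and 14314, 15066 and 14921 with S-metolachlor. Every exposed array exceeded every control, with changes of 1.18 with alachlor and 1.94 with S-metolachlor (limma adjusted p for the main effect = 1.58e-05). DAL3 and DAL1, of allantoin breakdown, changed by 1.86 and 0.93, and GDH2, the glutamate dehydrogenase gene that releases ammonium, by 0.94.

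The phosphate regulon, the genes induced by Pho4 when phosphate is short, rose as well. Of 20 members 14 rose and 1 fell over both experiments (70.0% and 5.0%, against 15.4% and 15.3% of all genes). With both compounds 6 rose, and the median was 0.23. PHO89 (YBR296C), a sodium-phosphate cotransporter gene, had 2250.2, 1492 and 1918 in the alachlor controls and 3825, 5073 and 5445 with alachlor, and 3209, 2359 and 2868 in the S-metolachlor controls and 6321, 6912 and 5652 with S-metolachlor. Within each experiment the exposed arrays were above the controls, with changes of 1.35 with alachlor and 1.17 with S-metolachlor. PHO5, the repressible acid phosphatase gene, had 936, 1022 and 1120.0 in the alachlor controls and 3423, 2789 and 3015 with alachlor, and 1135, 1389.7 and 1592 in the S-metolachlor controls and 2462, 3148 and 2235 with S-metolachlor. It too rose in each experiment, for 1.58 with alachlor and 0.93 with S-metolachlor, while the constitutive phosphatase gene PHO3 fell. PHM6 rose by 1.40, and PHO11, on a probe set shared with similar sequences, by 1.07. The member that fell was PHM8, a nucleotide phosphatase gene (-0.26 with alachlor and -1.49 with S-metolachlor), which was not called for alachlor (limma adjusted p = 0.371).

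Sulfur genes rose in a subset. Of 31 genes of sulfate assimilation and methionine synthesis, 11 rose and 4 fell (35.5% and 12.9%, against 15.4% and 15.3% of all genes). With both compounds 10 rose and 1 fell, and the median was 0.12. MET28 (YIR017C), a regulator of the pathway, had 159, 187 and 167 in the alachlor controls and 575, 548 and 566 with alachlor, and 88, 79.7 and 80.1 in the S-metolachlor controls and 577, 453 and 550.1 with S-metolachlor. The control groups were dim and the exposed groups reached 1 common range, with changes of 1.72 with alachlor and 2.67 with S-metolachlor. STR3, the cystathionine beta-lyase gene, changed by 1.51, MET2, the homoserine acetyltransferase gene, by 0.83, and MET16, the reductase gene for activated sulfate, by 0.71. Among 47 genes of amino acid synthesis 17 rose and 7 fell (36.2% and 14.9%), with 7 higher with both and a median of 0.04. BAT2, the cytosolic branched-chain aminotransferase gene, rose by 0.47 and HIS7 by 0.30, whereas LEU1 and LEU9, of leucine synthesis, changed by -0.39 and -0.37. Of 16 amino acid permease genes 4 rose and 1 fell over both experiments. By limma 0 changed with both, and 2 had an unadjusted p under 0.05 for each compound.

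Genes of very-long-chain fatty acid elongation, the pathway these herbicides block in plants, gave 1 call. Of 8 measured genes 1 rose over both experiments (12.5%, against 15.4% of all genes), and the list median was 0.05. The member that rose was ACB1, which encodes the acyl-CoA binding protein, with 12010.1, 12934 and 12808 in the alachlor controls and 15557, 13842 and 14389 with alachlor, and 11673, 11559 and 11682 in the S-metolachlor controls and 15407, 15736 and 16816 with S-metolachlor. Its exposed arrays exceeded the controls in each experiment by a small margin, for changes of 0.21 with alachlor and 0.46 with S-metolachlor. The elongase genes ELO1, ELO2 and ELO3 had main effects of 0.07, 0.04 and 0.07 (limma adjusted p = 0.133, 0.473 and 0.261). The reductase and dehydratase genes IFA38, PHS1 and TSC13 had -0.05, 0.14 and 0.00, and FAT1, an activating enzyme and importer of fatty acids, had -0.06. These 7 genes were not called for the main effect, and their 95% intervals lay between -0.23 and 0.28. ELO1 and PHS1 were called for S-metolachlor by itself (0.13 and 0.25).

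Sterol genes rose by small amounts. Of 26 ergosterol genes 13 rose and 1 fell over both experiments, 4 rose with both, and the median was 0.13. By itself alachlor raised 4 and lowered 1 (median 0.06), and S-metolachlor raised 15 and lowered 1 (median 0.21). ERG3, the sterol desaturase gene, had the largest rise of the list at 0.62 (0.45 with alachlor and 0.79 with S-metolachlor), followed by ERG26 (0.43), ERG27 (0.42) and ERG28 (0.40), of sterol demethylation. Sphingolipid genes moved both ways. Of 24 genes 6 rose and 8 fell, and 3 rose and 2 fell with both. LAC1, a ceramide synthase subunit gene, rose by 0.55, and SUR2, the hydroxylase gene that makes phytosphingosine, by 0.43, while ISC1, the gene of an enzyme that cleaves complex sphingolipids, changed by -0.38. The call for ISC1 was lost without alachlor control replicate 2, alachlor IC20 replicate 3 or any 1 S-metolachlor array other than IC20 replicate 2. Among 20 phospholipid genes 5 rose and 6 fell, and INO1 was the 1 gene that changed with both. INO2, an activator of INO1, changed by -0.39 over both experiments, and the choline kinase gene CKI1 by -0.45. The call for INO2 was lost without alachlor control replicate 2 or 3, alachlor IC20 replicate 3, S-metolachlor control replicate 3 or any 1 of the 3 S-metolachlor IC20 arrays. Of 14 genes of fatty acid synthesis and activation 2 rose and 1 fell (14.3% and 7.1%). By limma 0 changed with both, and 1 had an unadjusted p under 0.05 for each compound. FAA2, a fatty acid activating enzyme gene, changed by -0.43 over both experiments, a call lost without S-metolachlor control replicate 2 or 3 or IC20 replicate 1.

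Genes of central carbon metabolism gave single strong changes among many small ones. Of 12 genes of the pyruvate carrier and pyruvate dehydrogenase 6 rose and 2 fell, and 4 rose with both, including PYC1, a pyruvate carboxylase gene (0.60), and LPD1 (0.36) beside MPC3. Of 24 genes of the TCA and glyoxylate cycles 9 rose and 3 fell (37.5% and 12.5%). On that list 5 rose and 1 fell with both, with CIT3, a mitochondrial methylcitrate and citrate synthase gene, at 0.86 and PCK1, of gluconeogenesis, at 0.60. In the list of 18 carnitine and beta-oxidation genes, 4 rose and 6 fell (22.2% and 33.3%), and 3 rose and 1 fell with both. CRC1, the mitochondrial carnitine carrier gene, had 251, 227 and 246 in the alachlor controls and 564, 558 and 557 with alachlor, and 149, 121 and 113 in the S-metolachlor controls and 247, 239.8 and 267 with S-metolachlor. It rose in each experiment, with changes of 1.21 with alachlor and 0.99 with S-metolachlor, and YAT2, a carnitine acetyltransferase gene, rose by 0.64. Of 36 respiratory chain genes 7 rose and 3 fell over both experiments (19.4% and 8.3%). The 2 changed with both were lower, namely NDE1 (-0.52), a mitochondrial NADH dehydrogenase gene, and CYT1 (-0.51), the cytochrome c1 gene. Of 31 glycolysis and fermentation genes 4 rose and 3 fell (12.9% and 9.7%), with 1 each way with both, ADH5 (0.30) and ALD5 (-0.39).

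Hexose transport genes split. Of 19 measured, 6 rose and 4 fell (31.6% and 21.1%, against 15.4% and 15.3% of all genes), and 2 rose and 3 fell with both. HXT4 (YHR092C), a high-affinity glucose transporter gene, had 3487, 2599.8 and 3297 in the alachlor controls and 996, 1164 and 1088 with alachlor, and 7264, 6980.5 and 6443 in the S-metolachlor controls and 1803, 2017 and 1569 with S-metolachlor. Its exposed arrays were below all controls, with changes of -1.52 with alachlor and -1.95 with S-metolachlor. HXT7, on a probe set shared with similar sequences, fell by 1.60 on the log2 scale and HXT2 by 0.55, while the glucose repressor gene MIG2 rose by 0.53. Some cofactor genes rose with both. Of 14 NAD synthesis genes 4 rose over both experiments (28.6%), all 4 with both, while 4 others were called lower with S-metolachlor and not with alachlor. Of the genes that rose, BNA2, the tryptophan dioxygenase gene that starts the pathway, had 209, 239 and 234 in the alachlor controls and 743, 632 and 562 with alachlor, and 182, 157 and 151 in the S-metolachlor controls and 562, 652 and 543 with S-metolachlor. No exposed array overlapped a control, and the changes were 1.50 with alachlor and 1.84 with S-metolachlor. Of 14 genes of vitamin B6 and thiamine synthesis 5 rose (35.7%), 4 of them with both, among them SNO1 (0.53) and PDX3 (0.34), and 1 was called lower with S-metolachlor.

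Heat shock chaperone genes were lower, with more calls for S-metolachlor than for alachlor. Of 26 measured, 15 fell over both experiments (57.7%, against 15.3% of all genes) and 11 did not pass the test. With both compounds 2 fell, and the median was -0.21. By itself alachlor lowered 5 (median -0.14) and S-metolachlor 16 (median -0.28), where 4.5% and 22% of all genes were lower. SSA1 (YAL005C), a major cytosolic Hsp70 chaperone gene, had 10624, 8823 and 10109 in the alachlor controls and 7085, 7184 and 8809 with alachlor, and 8462, 8016 and 8002 in the S-metolachlor controls and 5447, 5503 and 6016 with S-metolachlor. The exposed arrays lay below the controls of their own experiment, for changes of -0.36 with alachlor and -0.53 with S-metolachlor. STI1, an Hsp70 and Hsp90 co-chaperone gene, changed by -0.33 and SSC1, the mitochondrial Hsp70 gene, by -0.33. Of 30 general stress genes 4 were higher and 6 lower (13.3% and 20.0%, against 15.4% and 15.3% of all genes), and 3 were higher and 1 lower with both. With S-metolachlor 4 were higher and 13 lower (median -0.29), and with alachlor 3 were higher and 1 lower (median 0.12). HSP12, a small membrane-bound heat shock protein gene, rose by 1.09, TSL1, of the trehalose synthase complex, by 0.99 and the repressor gene XBP1 by 0.94. GSY1, a glycogen synthase gene, changed by -0.21 with alachlor (limma adjusted p = 0.598) and -2.09 with S-metolachlor (limma adjusted p = 7.50e-05). Its call for the main effect was lost without any 1 of the 3 S-metolachlor IC20 arrays.

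The weak acid response list, which holds targets of War1 and Haa1, had 2 of 14 genes higher and 5 lower, with YGP1 higher and PDR12 lower with both. These shares were 14.3% and 35.7%, against 15.4% and 15.3% of all genes. The list median was -0.50 for the main effect, 0.12 with alachlor and -1.16 with S-metolachlor. HSP30 (YCR021C), a plasma membrane heat shock protein gene that restrains the proton pump Pma1, had 289, 307 and 298 in the alachlor controls and 363, 318 and 322 with alachlor, and 14099, 6006 and 5619.9 in the S-metolachlor controls and 247, 329 and 225 with S-metolachlor. Only the S-metolachlor controls were high, and among them replicate 1 stood above the others. Its changes were 0.16 with alachlor (limma adjusted p = 0.784) and -4.89 with S-metolachlor (limma adjusted p = 3.36e-06). The main effect of -2.36 (limma adjusted p = 0.0467) was -1.89 (limma adjusted p = 0.0873) without that control.

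Lists of protein synthesis and breakdown had medians near 0, with more lower than higher calls in the ribosome lists. Of 68 ribosome biogenesis genes 0 rose and 15 fell over both experiments (22.1%, against 15.3% of all genes), and 53 did not pass the test. On that list 3 were lower with both, and the median was -0.06. By itself alachlor raised 0 and lowered 5 of the 68 (median -0.11). S-metolachlor raised 10 and lowered 15 (median -0.05), where it raised 18.5% and lowered 22% of all genes. Of 32 cytosolic ribosomal protein genes 0 rose, 7 fell (21.9%) and 25 did not pass the test. By limma 0 of them changed with both, and 1 had an unadjusted p under 0.05 for each compound. By itself S-metolachlor lowered 7 of the 32, a share near the 22% of all genes, and alachlor lowered 0. Of 43 mitochondrial ribosomal protein genes 2 rose and 13 fell (4.7% and 30.2%), with 5 lower with both and a median of -0.09. By itself alachlor lowered 16 of the 43 (median -0.17), where 4.5% of all genes were lower. S-metolachlor raised 4 and lowered 8 (median 0.02). MRPL4 changed most on this list, with -0.46 with alachlor and -1.13 with S-metolachlor. Of 40 proteasome genes 4 rose and 3 fell (10.0% and 7.5%, against 15.4% and 15.3% of all genes). The 1 gene changed with both was UBI4, the polyubiquitin gene (0.81). By itself S-metolachlor raised 13 of the 40 and lowered 2, and alachlor raised 1 and lowered 1. Of 24 genes of ER folding and the unfolded protein response 1 rose, EUG1 (0.18), and 1 fell, SEC61 (-0.25), or 4.2% each way. The call for SEC61 was lost without alachlor control replicate 1 or any 1 of the 6 S-metolachlor arrays. Among 26 autophagy genes 5 rose and 5 fell (19.2% each way). ATG40, the receptor gene for autophagy of the endoplasmic reticulum, had 899, 852 and 988 in the alachlor controls and 2801, 3179.8 and 2981 with alachlor, and 797, 677 and 722 in the S-metolachlor controls and 3114, 3093 and 2949 with S-metolachlor. Its exposed arrays exceeded all controls, with changes of 1.71 with alachlor and 2.06 with S-metolachlor, and ATG39, the receptor gene for the nuclear envelope, changed by -0.51.

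The shares of cell wall and metal genes called were near those of all genes. Of 37 cell wall genes 6 rose and 5 fell (16.2% and 13.5%, against 15.4% and 15.3% of all genes), and 4 rose and 2 fell with both. DSE4, a daughter cell glucanase gene, rose by 0.57 and PST1, a gene of cell wall stress, by 0.40. Of 6 genes of the Wsc and Mid sensors WSC4 was the 1 called for the main effect. By itself S-metolachlor lowered 3 of the 6, where it lowered 22% of all genes, and alachlor lowered 1. Of 9 anaerobic mannoprotein genes 1 rose and 3 fell (11.1% and 33.3%), with TIR4 lower with both (-0.53). Of 34 iron, copper and zinc genes 6 rose and 5 fell (17.6% and 14.7%), and 1 rose and 3 fell with both. FTR1 (YER145C), the high-affinity iron permease gene, had 6033, 6549 and 6322 in the alachlor controls and 3335, 2945 and 2884 with alachlor, and 7779, 3669 and 4480.5 in the S-metolachlor controls and 1424, 1854 and 1211 with S-metolachlor. The exposed arrays were below the controls of their own experiment, and S-metolachlor control replicate 1 was the highest. Its main effect of -1.41 was -1.23 (limma adjusted p = 0.000135) without that array. FET4, a low-affinity iron transporter gene, changed by -1.32. HMX1, the heme oxygenase gene, and ARN1, a siderophore transporter gene, rose over both experiments by 1.02 and 0.93, and neither was changed with both.

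No cell cycle or DNA damage gene was changed with both, where 4.79% of all genes were higher and 2.94% lower with both. These shares are small, so a count of 0 among 35 and 15 genes lies near them. Of 35 cell cycle and histone genes 4 rose and 3 fell over both experiments (11.4% and 8.6%, against 15.4% and 15.3% of all genes), with CLB1, a mitotic cyclin gene, at -0.62 and CDC6, a replication licensing gene, at 0.38. By limma 0 changed with both, and 2 had an unadjusted p under 0.05 for each compound. Of 15 DNA damage genes 5 rose (33.3%), with HUG1, an inhibitor of ribonucleotide reductase, at 0.71. Here too 0 changed with both by limma, and 2 had an unadjusted p under 0.05 for each compound. By itself S-metolachlor, which raised 18.5% and lowered 22% of all genes, raised 7 and lowered 5 of the cell cycle and histone genes. It raised 5 and lowered 2 of the DNA damage genes, and alachlor raised 1 of the DNA damage genes.

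Marker genes of cell type were called in both directions. Of 7 MATa-specific genes AGA2, an agglutinin subunit gene, was called lower (-0.44), a call lost without any 1 S-metolachlor array other than control replicate 1. With S-metolachlor by itself 4 of the 7 were lower. The 7 summed to 80890.3 to 82711.0 in the alachlor controls, 81227.5 to 87930.7 with alachlor, 72664.1 to 82992.5 in the S-metolachlor controls and 70644.0 to 72257.1 with S-metolachlor, and their part in the other results was not tested. Of 4 MATalpha-specific genes STE3, the receptor gene for a-factor, rose by 0.84, from intensities of 83.4, 95.4 and 95.3 to 169, 168 and 145 with alachlor and from 122, 81 and 86.9 to 175, 167 and 179 with S-metolachlor. These levels are dim in all groups, and of the other MATalpha genes SAG1 lay between 517 and 1736. The 4 MATalpha-specific genes summed to 1381.1 to 1568.9 in the alachlor controls, 1752.9 to 2047.4 with alachlor, 911.8 to 1051.9 in the S-metolachlor controls and 797.1 to 824.9 with S-metolachlor, and their part in the other results was not tested. Of 16 haploid-specific and pheromone genes 4 fell over both experiments, 1 of them with both, and 12 did not pass the test. Of 21 meiosis and sporulation genes 7 rose and 1 fell (33.3% and 4.8%, against 15.4% and 15.3% of all genes). DIT1, a spore wall gene, was the 1 that rose with both (1.24). That list summed to between 2504.5 and 2937.0 on every array. Of the 4 auxotrophy markers HIS3 rose by 0.22 over both experiments. The medians of the lists given here by counts alone lay between -0.23, for the Wsc and Mid sensors, and 0.11, for autophagy.

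**Figure D4:**
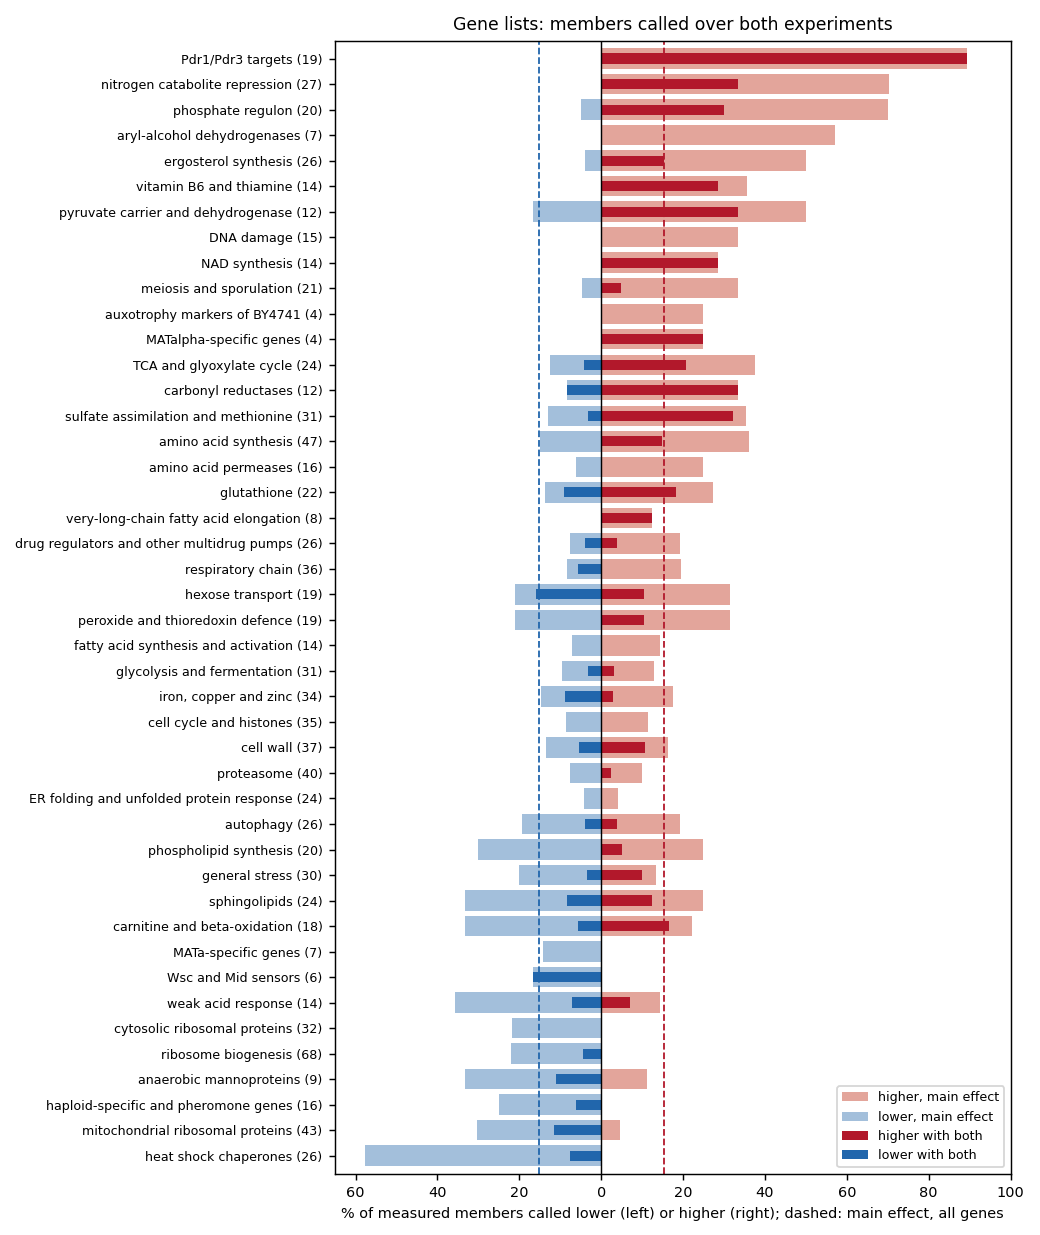
Share of the measured members (number in brackets) of 44 gene lists called higher (right) or lower (left). Pale bars are the main effect over both experiments, dark bars genes changed with both compounds, and dashed lines the share of all genes called for the main effect, 15.4% higher and 15.3% lower. The Pdr1/Pdr3 list has the longest bar to the right and the heat shock chaperones the longest to the left.

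The other 24 arrays, which had no part in choosing these genes and share no controls with the 12, show how many of them other pesticides changed too. Of the 261 genes higher with both chloroacetanilides, 140 (53.6%) were also higher with diuron, a urea herbicide, where 6.97% of all genes were called higher by limma. With MCPA-ME, the methyl ester of the herbicide MCPA, 132 (50.6%) were higher against 8.07% of all genes. Fitted on the 6 MCPA-ME arrays by themselves, an alternative chosen after seeing the data, the number was 31, and 48 genes in all were called higher. With pyrimethanil, an anilinopyrimidine fungicide, 103 (39.5%) were higher against 4.68%, and with carbofuran, a carbamate insecticide, 93 (35.6%) against 15.7%. Called the other way were 4, 8, 6 and 33 of them in that order. The median log2 change of the 261 genes was 0.43 with diuron, 0.37 with MCPA-ME, 0.30 with pyrimethanil and 0.11 with carbofuran, against medians between -0.04 and 0.00 over all genes. Of the 261, 29 were higher with each of the other 4 pesticides and 48 with none of them.

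Of the 160 genes lower with both, 62 (38.8%) were also lower with MCPA-ME, where 6.15% of all genes were called lower. On the 6 MCPA-ME arrays by themselves the number was 6, and 15 genes in all were called lower. The count was 40 (25%) with diuron against 3.96%, 32 (20%) with pyrimethanil against 5.73% and 26 (16.2%) with carbofuran against 20.4%. For carbofuran this share was below that of all genes, and the median log2 change of the 160 genes was 0.01. With the others the medians were -0.34 for MCPA-ME, -0.25 for diuron and -0.24 for pyrimethanil. Of the 160, 4 were lower with each of the other 4 and 60 with none. On their own 6 arrays the numbers were 67 for diuron and 53 for pyrimethanil. Leaving out 1 array moved the lower counts, to between 24 and 59 for diuron, 44 and 79 for MCPA-ME and 8 and 52 for pyrimethanil. The pyrimethanil count fell without any 1 of the 6 pyrimethanil arrays. The diuron count was 24 without its control replicate 3. The pyrimethanil count was 8 without its control replicate 1, 16 without control replicate 3, 21 without IC20 replicate 1, 11 without IC20 replicate 2, 12 without IC20 replicate 3 and 52 without MCPA-ME IC20 replicate 2.

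Set against the mean change with the other 4 pesticides in a fit over 36 arrays, the mean change with the chloroacetanilides was higher for 313 genes (5.74% of those tested) and lower for 242 (4.44%), by limma at an adjusted p under 0.05. Higher differences made up 56.4% of the calls, and 40.3% with each array centred on its median (227 higher and 336 lower). The lower count was 149 without S-metolachlor control replicate 1 and 153 without S-metolachlor IC20 replicate 3. Of the genes higher with both, 82 of 261 also exceeded the other pesticides by this test and 8 went the other way. Of the genes lower with both the numbers were 47 and 1 of 160. These genes were chosen for their changes on the same chloroacetanilide arrays that enter this test. Such a choice by itself favours differences in the same direction. The counts therefore cannot show whether the shared changes are particular to the chloroacetanilides. The same limit holds for genes picked by their call for the main effect. The Pdr1/Pdr3 list had 15 of 19 members above the other pesticides. PDR3 and PDR15 were not among them, with differences of -0.31 and 0.33 (limma adjusted p = 0.114 and 0.14).

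The largest positive differences among genes called for the main effect were in YGR035C (2.27), YLL056C (1.91), MPC3 (1.77), PHO89 (1.64), PDR10 (1.63) and RSB1 (1.63). PDR10 changed by 0.09 with diuron, 0.38 with MCPA-ME, 0.16 with pyrimethanil and 0.48 with carbofuran, on the log2 scale. RSB1, in contrast, changed by 4.51 with diuron, 5.40 with MCPA-ME and 3.28 with pyrimethanil, and by -0.60 with carbofuran. The values for pyrimethanil and carbofuran lie below those of both chloroacetanilides, and those for diuron and MCPA-ME do not. PHO89 changed by -0.18 with diuron, -1.17 with MCPA-ME, -1.43 with pyrimethanil and 1.25 with carbofuran. The phosphate regulon had 8 of 20 members above the other pesticides and the hexose transport list 7 of 19.

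The largest negative differences were in HSP30 (-2.28), WSC4 (-1.65), CWP1 (-1.39), HPF1 (-1.27), YBL029W (-1.22) and RPI1 (-1.21). CWP1 changed by -0.25 with diuron, 0.20 with MCPA-ME, -0.22 with pyrimethanil and -0.18 with carbofuran, against -1.61 with alachlor and -1.39 with S-metolachlor (limma adjusted p for the difference = 6.89e-07). HPF1, a cell wall mannoprotein gene, was called for S-metolachlor (-1.46) and not for alachlor (-0.40, limma adjusted p = 0.152). The value of HSP30 against the other 4 rested on the S-metolachlor experiment and was -2.07 without S-metolachlor control replicate 1 (limma adjusted p = 0.06). Several of the strongest shared changes did not differ from the other pesticides by this test. HXT4 differed by -0.14 (limma adjusted p = 0.741), PDR12 by -0.02 (0.959) and YGP1 by 0.55 (0.149), which leaves the size of any difference within their intervals.

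**Figure D5:**
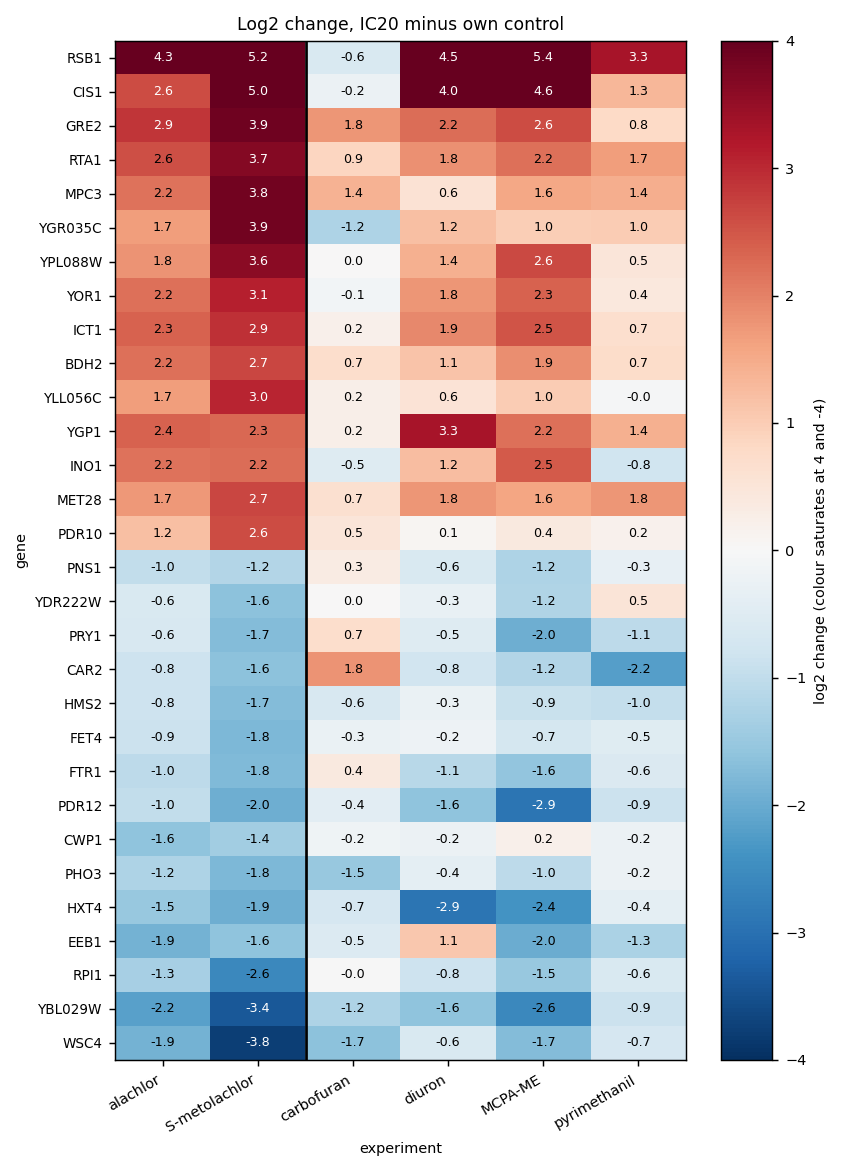
Log2 change (colour and printed value, IC20 minus own control, 3 arrays a group) of the 15 genes with the largest shared rise and the 15 with the largest shared fall in each of the 6 experiments. The 2 chloroacetanilide columns left of the line chose the genes. In the other 4 columns RSB1 is between 3.3 and 5.4 with diuron, MCPA-ME and pyrimethanil and -0.6 with carbofuran. CWP1 changes less in each of these 4 columns than with either chloroacetanilide.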

How the data were processed

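Saccharomyces cerevisiae RNA was hybridised to Affymetrix Yeast Genome 2.0 arrays. The deposited table holds linear probe set intensity values that the authors made with Affymetrix Expression Console, per the submitters' processing notes. Its version, the normalization between arrays and the probe summary were not given in the sources used here.

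Of 5716 probe sets, 5498 were assigned to 1 gene by the platform annotation and 218 to none. For 47 genes with several, the probe set with the highest mean over 36 arrays was kept, which gave 5449 genes, and 12 symbols were updated through RefSeq gene identifiers. With 3 arrays a group, their number sets the precision. Intensities of the 12 arrays ran from 1 to 39731.7. Values under 32 (1.90% of them, 84 to 120 genes an array) were raised to 32, and log2 taken.

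limma 3.58.1 in R 4.3.3 fitted experiment plus exposure to the 12 arrays (9 residual degrees of freedom, 10.58 after moderation) for the main effect. A fit of 1 mean per group on the same arrays gave each compound's change. The other 4 pesticides were fitted on their 24 arrays, and the contrast with them on 36. Tests were two-sided, with Benjamini-Hochberg adjustment over 5449 genes. A gene changed with both has an adjusted p under 0.05 for each compound and the same sign. The code was tested on simulated data. Tables were summarised in Python 3.11.15 with pandas 2.3.3.

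The members, the 44 gene lists (997 of 1020 entries measured) and the tests were chosen with earlier results of these data known. Genes named are the 15 largest main effects in each direction that changed with both, did not overlap between groups in either experiment and lie on probe sets without the suffix _s_at or _x_at. Added to them are all measured Pdr1/Pdr3 targets, up to 4 called members of each other list, the 6 largest differences each way from the other pesticides, and all members of the mating type, auxotrophy and elongation lists, 203 genes in all. Genes on shared probe sets are identified as such.

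Alternatives were other fits, normalizations, floors and filters, array weights, 6 controls as 1 group, a replicate block and leaving out each array. Deviations of same-numbered control and IC20 arrays correlated between -0.71 and 0.21 for alachlor, and those of differently numbered arrays between -0.57 and 0.73. For S-metolachlor the ranges were 0.05 to 0.29 and -0.36 to 0.28. These values do not settle whether equal numbers mark paired cultures. Signs of RNA quality were not analysed here.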

Additional observations from a re-analysis of the deposited data

Results flagged for a closer look

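For 149 genes (2.73% of those tested) all 3 IC20 values lay beyond all 3 control values in both experiments but in opposite directions, 81 higher with alachlor and lower with S-metolachlor and 68 the reverse. The difference was not tested, since the mass doses differ. Among the named genes this held for HSP30, with log2 changes of 0.16 with alachlor and -4.89 with S-metolachlor. It held for the mating pheromone gene MFA1, with 0.11 and -0.14, and for the agglutinin gene SAG1, with 0.36 and -0.49.

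Of 218 probe sets without a gene name in the annotation, which entered no comparison above, 72 were called for the main effect by limma at an adjusted p under 0.05, with 48 higher and 24 lower. That is 33.0%, against 30.6% of all probe sets.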

How the results depend on the processing

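No named gene called for the main effect changed direction under any alternative. The balance of higher and lower counts did turn with the scaling, to 1150 and 1037 for S-metolachlor and 251 and 279 for the contrast with the other 4 pesticides under quantile normalization, and to 1118 and 1073 and 227 and 336 with each array centred on its median. The 30 genes with the largest shared changes kept their calls in all settings tried, apart from CAR2, HMS2 and PRY1 with the 6 controls as 1 group. Other genes in the text that lost the call in that setting include FLR1, AAD4, OPT1, PHM8, BAT2, LEU9, ERG28, PYC1, SNO1, STI1, SSC1, XBP1, EUG1, MRPL4, TIR4, CDC6 and HPF1. Of 182 named genes called for the main effect, 105 kept the call in every setting other than a 2-fold minimum.

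With a 2-fold minimum the counts (higher, then lower) were 47 and 26 for the main effect, 44 and 9 for alachlor, 67 and 84 for S-metolachlor and 36 and 9 for both. With the 6 controls as 1 group the main effect had 452 and 311. In the fit over all 36 arrays, alachlor had 192 and 82, S-metolachlor 549 and 782, and both 151 and 56. With array weights alachlor had 565 and 426, both 413 and 278, and the contrast with the other 4 pesticides 1312 and 1029. That contrast had 691 and 561 without the MCPA-ME arrays. With a replicate block, which takes arrays of equal number as pairs, the main effect had 553 and 462 and alachlor 165 and 76. In that setting both had 137 and 61, and the contrast with the others 472 higher. On each pesticide's own 6 arrays, an alternative chosen after seeing the data, the genes changed with both and also with another pesticide were 31 higher and 6 lower for MCPA-ME, 67 lower for diuron and 53 lower for pyrimethanil. The causes of these moves were not tested, beyond the fewer arrays or stricter call that a setting brings by construction.

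Leaving out 1 array at a time gave 649 to 881 higher and 579 to 887 lower genes for the main effect, 228 to 463 and 127 to 288 for alachlor, 806 to 1023 and 894 to 1230 for S-metolachlor, 191 to 323 and 88 to 174 for both, and 227 to 295 and 149 to 228 for the contrast with the others. For genes changed with both and with another pesticide the ranges were 75 to 99 and 22 to 31 for carbofuran, 114 to 152 and 24 to 59 for diuron, 111 to 136 and 44 to 79 for MCPA-ME, and 70 to 122 and 8 to 52 for pyrimethanil. The largest moves of the alachlor counts were 228 higher without alachlor control replicate 2 and 127 lower without alachlor IC20 replicate 3. Genes near the floor of 32 have no measured order.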

Other observations

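By limma, 13 genes were called in opposite directions for alachlor and S-metolachlor, 6 of them higher with alachlor and 7 lower. They are named here after their values were seen. TPO4, a polyamine exporter gene, changed by 0.93 with alachlor and -0.37 with S-metolachlor, and PLB3, a phospholipase B gene, by 0.47 and -0.27. YGR079W, without an established function, changed by -0.42 and 1.07, and SPO19, a spore wall gene, by -0.79 and 0.59. The small G protein gene RAS1 changed by -0.25 and 0.17. The differences were not tested.

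GRE2, RSB1 and MET28 reached overlapping intensities in both exposed groups from control levels that did not overlap. This was not general among the shared genes. The absolute log2 gap between the alachlor and S-metolachlor experiments was smaller in the exposed arrays than in the controls for 37.9% of the genes higher with both and 31.9% of those lower with both, against 41.8% of all genes.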
